A study of Mus musculus with 6 samples.

Results

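Inflammasomes are protein platforms that a cell of the innate immune system builds when it meets a danger signal in its cytosol. A sensor recruits the adaptor ASC, the adaptor gathers caspase-1, and the active caspase matures interleukin-1 cytokines and cuts gasdermin D, whose fragments form pores in the plasma membrane. Pyroptosis, the death that follows, ends with rupture of the membrane, a step that needs NINJ1. Dendritic cells and macrophages are main sources of interleukin-1 by this route.

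The genes described here are 10 of the 36706 genes in the deposited tables, taken by name. They comprise 4 sensors (Nlrp3, Nlrp1b, Nlrc4 and Mefv), 1 adaptor (Pycard), 3 caspases (Casp1, Casp4 and Casp8) and 2 membrane effectors (Gsdmd and Ninj1). Each had 1 row in the tables, and all 10 passed the filter on low counts. With 4-OI the adaptor, 3 sensors, Casp4 and Gsdmd were lower, while Casp1, Nlrc4 and Ninj1 were higher. Of all tested genes, 48.1% passed the same test in either direction. Casp4 no longer passed when any 1 of 4 single libraries was left out. Casp8 did not pass the test.

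Messenger RNA was sequenced from dendritic cells of wild-type (WT) mice, grown from bone marrow in 20 ng/mL GM-CSF with medium changes on day 3 and day 5. The study asked what itaconate does to dendritic cells, using 4-octyl itaconate (4-OI), an ester of that metabolite which enters cells. Cells of 3 libraries received IFN-γ together with 4-OI (the 4-OI libraries), and cells of the other 3 received IFN-γ alone (the IFN-γ libraries). Both groups therefore share the WT genotype, the GM-CSF culture and IFN-γ, and no cells without IFN-γ were analysed here. Not given in the sources used here: the doses of IFN-γ and 4-OI, the length of treatment, any priming with a bacterial product and the mouse strain. The sample titles write BMDMs, the usual abbreviation for macrophages, where the cell type label and the culture protocol give dendritic cells. Whether replicates are separate cultures or animals is not labelled. A p-value here sets the difference between groups only against the scatter of these libraries, and that scatter may be technical.

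The libraries held 19656368 to 29244717 counts, at which 3 counts equal 0.103 to 0.153 CPM by total counts alone. Levels below are CPM, the counts of a gene relative to the size of its library, adjusted by TMM factors, which offset differences in library composition. Between 15.1% and 16.9% of counts fell on the 10 most abundant genes in the 4-OI libraries, against 7.37% to 8.59% in the IFN-γ libraries. AY036118, a gene resembling ribosomal RNA, took 0.504%, 0.108% and 1.20% of counts in 4-OI replicates 1 to 3, against 0.0634% to 0.0973% in the IFN-γ libraries, and its part in the results was not tested. IFN-γ replicate 1 lay apart from its group on the second principal component, which held 10.7% of the variance. Within its group it had the highest level of all 4 sensors and the lowest level of the other 6 genes. 4-OI replicate 3 had the lowest level of its group for the 4 sensors, Casp8 and Gsdmd, and the highest for Pycard, Casp1, Casp4 and Ninj1. Where leaving out both libraries changed a call of a gene named below, that fit is given beside it. It drops libraries that were seen to stand at the edge of their group. Of 14086 genes tested, it called 4601 higher and 4695 lower, against 3181 and 3555 of 14011 with all libraries. Its smaller p-values are therefore not comparable with those of the full fit.

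Markers of the cells that GM-CSF cultures hold moved as well. Over all tested genes, 22.7% were called higher and 25.4% lower in edgeR's quasi-likelihood test, the shares against which the counts of this paragraph stand. Of the 9 tested markers of conventional dendritic cells, 1 was higher and 6 were lower with 4-OI, and their summed level was 1712 to 1866 CPM in the 4-OI libraries, against 2223 to 2586 CPM in the IFN-γ libraries. Among these, Itgax (CD11c), 1 of the 6 lower, averaged 214 ± 8.73 CPM with 4-OI and 514 ± 50.01 CPM with IFN-γ alone. Clec9a, the 1 called higher, averaged 35.6 ± 2.22 CPM with 4-OI and 9.54 ± 0.980 CPM with IFN-γ alone (edgeR adjusted p = 7.88e-06). Xcr1 and Cd209a were under 1 CPM in both groups. Of 10 macrophage markers, 2 were higher and 2 lower (2699 to 2837 CPM in the 4-OI libraries, against 2128 to 2203 CPM in the IFN-γ libraries). Of 9 monocyte markers, 6 were lower and none was higher (5818 to 6895 CPM with 4-OI, against 7080 to 7976 CPM with IFN-γ alone). Of 13 neutrophil markers, 2 were higher and 8 lower (3987 to 4671 CPM with 4-OI, against 3655 to 4374 CPM with IFN-γ alone). Sums follow the most abundant genes of a list and need not follow its calls. In the neutrophil list, Mmp8 had 1966 CPM with 4-OI and 1952 CPM with IFN-γ alone (not called), and S100a8 1099 and 569 CPM (higher). In the monocyte list, Chil3 had 5239 CPM with 4-OI and 5085 CPM with IFN-γ alone (not called). Mast cell and basophil markers were lower in 6 of 6 tested cases (90.0 to 98.0 CPM with 4-OI, against 301 to 345 CPM with IFN-γ alone). None of the 5 B cell markers passed (7.43 to 8.65 CPM with 4-OI, against 9.18 to 10.1 CPM with IFN-γ alone), and the 1 tested marker of T and NK cells was lower (sum of the list 3.95 to 5.02 CPM with 4-OI, against 7.08 to 10.2 CPM with IFN-γ alone). No marker was at 0 in every library, and the part of these markers in the results was not tested. In bulk RNA, fewer cells of a type and less RNA per cell cannot be told apart.

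The promoters of the genes at both ends of the response are printed here, because the adaptor gene and the rupture gene had the lowest and the highest estimated fold change, together with 1 window each of the genes with a kappa B match. RefSeq (GRCm38.p6) gave 12 promoter windows for 9 of the 10 genes, each running from 250 bases before a start to 50 bases after it; Gsdmd is the missing entry. Capitals mark a match to a searched motif. The sequences read 5′ to 3′ on the gene's strand: Pycard at chr7:127993818-127994117 on the minus strand, Ninj1 at chr13:49187279-49187578 on the plus strand, Casp4 at chr9:5308599-5308898 on the plus strand and Nlrp3 (the second of its windows) at chr11:59541319-59541618 on the plus strand.
Pycard: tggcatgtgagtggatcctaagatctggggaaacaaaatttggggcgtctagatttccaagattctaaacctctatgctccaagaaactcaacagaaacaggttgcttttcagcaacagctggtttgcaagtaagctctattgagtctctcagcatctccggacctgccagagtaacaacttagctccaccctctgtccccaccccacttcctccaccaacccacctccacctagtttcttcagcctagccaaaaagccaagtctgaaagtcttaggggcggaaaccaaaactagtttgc
Ninj1: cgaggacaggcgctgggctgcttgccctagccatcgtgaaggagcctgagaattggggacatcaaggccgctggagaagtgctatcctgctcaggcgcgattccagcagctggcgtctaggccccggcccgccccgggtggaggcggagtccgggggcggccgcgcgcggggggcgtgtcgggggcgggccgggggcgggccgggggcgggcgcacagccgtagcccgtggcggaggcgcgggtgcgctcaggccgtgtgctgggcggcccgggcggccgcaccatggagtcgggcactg
Casp4: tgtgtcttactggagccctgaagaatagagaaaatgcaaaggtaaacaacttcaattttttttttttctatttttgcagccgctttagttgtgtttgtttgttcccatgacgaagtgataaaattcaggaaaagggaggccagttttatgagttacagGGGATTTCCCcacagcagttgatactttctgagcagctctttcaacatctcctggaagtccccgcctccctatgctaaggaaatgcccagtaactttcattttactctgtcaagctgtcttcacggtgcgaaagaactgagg
Nlrp3: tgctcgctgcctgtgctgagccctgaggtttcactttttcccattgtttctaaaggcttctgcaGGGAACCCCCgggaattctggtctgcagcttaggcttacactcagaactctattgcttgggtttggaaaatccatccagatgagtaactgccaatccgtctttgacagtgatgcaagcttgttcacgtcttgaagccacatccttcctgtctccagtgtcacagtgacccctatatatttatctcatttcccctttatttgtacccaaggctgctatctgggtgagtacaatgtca

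Both strands of each window were searched for 4 motifs. These were the core of the interferon-stimulated response element (GAAA and GAAA with 2 bases between), the gamma-activated sequence TTCNNNGAA, the core TGACNNNGC of the antioxidant response element bound by NRF2, and a kappa B form (GGGA and CC with 4 bases between) bound by NF-κB. The kappa B form occurred in Casp4 as GGGATTTCCC, also in a second window that overlaps the printed one, and in Nlrp3 as GGGAACCCCC. It is held by 20.7% of all 32851 windows of this length. The antioxidant core occurred once, on the opposite strand of the other Nlrp3 window (printed there as GCCTCGTCA, just past the start), against 12.4% of all windows. No match to the interferon-stimulated core (3.44% of all windows) or the gamma-activated sequence (8.30%) lay in the 12 windows. The Ninj1 window had a GC content of 76.3%, against 41.7% to 50.7% in the other 11 windows.

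Of the 10 genes, 9 passed an adjusted p of 0.05 in edgeR's quasi-likelihood test, against 48.1% of the 14011 genes tested. Of these, 3 were higher, against 22.7% of all tested genes, and 6 were lower, against 25.4%. At a change of at least 2-fold, 1 gene was higher (Ninj1; 6.38% of all tested genes) and 2 were lower (Pycard and Nlrp1b; 11.1%). The libraries of both groups did not overlap for any of the 10 genes, which held for 59.5% of all tested genes. The median log2 fold change was -0.37 over the 10 genes and -0.01 over all tested genes.

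**Figure D1:**
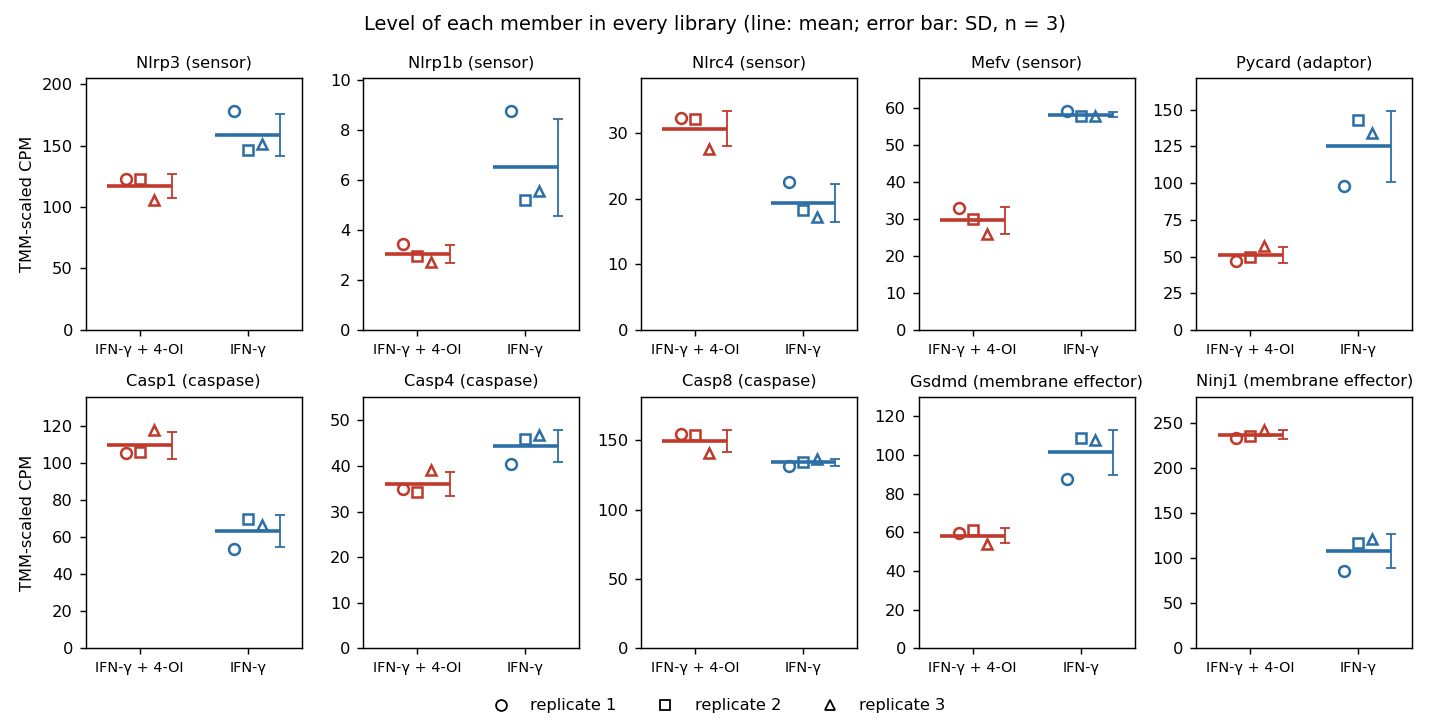
TMM-scaled CPM of each of the 10 genes in every library, with 4-OI libraries in red at the left and IFN-γ libraries in blue at the right of each panel (line: mean; error bar: SD, n = 3; marker shape: replicate). The groups do not overlap in any panel; Ninj1 lies at 234 to 243 CPM in the 4-OI libraries and at 86.5 to 121 CPM in the IFN-γ libraries.

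Among the sensors, 3 were lower and 1 was higher with 4-OI. Nlrp3 encodes the sensor that responds to potassium loss and membrane damage. It had 123, 122 and 105 CPM in 4-OI replicates 1 to 3, against 178, 146 and 152 CPM in the IFN-γ replicates. The highest 4-OI library thus lay below the lowest IFN-γ library, and the gene was 1.36-fold lower (log2 fold change -0.44 ± 0.11, SE; edgeR adjusted p = 0.0102). The log2 fold change was -0.28 with IFN-γ replicate 1 and 4-OI replicate 3 left out (edgeR adjusted p = 1.04e-06; 1.04e-06 to 0.0401 over the 15 alternatives). Nlrp3 lies at 59432395 to 59457781 on the plus strand of chromosome 11, by the deposited tables, whose coordinates are used for all genes below. They differ from those of the RefSeq windows, except for Casp1 and Casp4.

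Mefv encodes pyrin, which detects bacterial toxins that switch off the GTPase RHOA. It had 33.0, 30.0 and 25.9 CPM in the 4-OI libraries, against 59.2, 57.9 and 57.9 CPM in the IFN-γ libraries. The IFN-γ libraries were within an SD of 0.775 CPM of each other and all stood well above the 4-OI libraries. The gene was 1.97-fold lower (log2 fold change -0.98 ± 0.10, SE; edgeR adjusted p = 1.56e-04); its place is on the minus strand of chromosome 16, at 3524838 to 3536073.

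Nlrp1b encodes a sensor that is set off when a protease cuts it, as anthrax lethal factor does in some mouse strains. It had the fewest counts of the 10 genes, 63 to 221 per library, whereas the others had at least 406. Its levels were 3.42, 2.97 and 2.72 CPM in the 4-OI libraries, against 8.74, 5.19 and 5.56 CPM in the IFN-γ libraries. The groups did not overlap, and IFN-γ replicate 1 was the highest of all. The gene was 2.15-fold lower (log2 fold change -1.10 ± 0.22, SE; edgeR adjusted p = 0.00452). Its estimate was -0.76 without IFN-γ replicate 1 and 4-OI replicate 3. It lies on chromosome 11 at 71043400 to 71133340, minus strand, and 1.45% of its 50-base words in GENCODE transcripts also occurred in other genes, mostly in its neighbour in sequence, Nlrp1a.

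Nlrc4 was the sensor that rose. Its protein assembles with NAIP receptors that bind flagellin and parts of bacterial secretion needles. The gene had 32.3, 32.2 and 27.7 CPM in the 4-OI libraries, against 22.6, 18.2 and 17.2 CPM in the IFN-γ libraries. The lowest 4-OI library stood above the highest IFN-γ library, and the gene was 1.59-fold higher (log2 fold change 0.67 ± 0.12, SE; edgeR adjusted p = 0.00308). With libraries scaled by total counts alone the log2 fold change was 0.41 and the call was lost (edgeR adjusted p = 0.0518, the highest of the 15 alternatives, whose lowest was 2.14e-13). Nlrc4 lies on chromosome 17, minus strand, at 74733254 to 74766140.

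Pycard encodes ASC, the adaptor that joins the pyrin domains of NLRP3 and pyrin to the caspase recruitment domain of caspase-1. It had 46.9, 49.3 and 57.0 CPM in the 4-OI libraries, against 97.9, 143 and 134 CPM in the IFN-γ libraries. The lowest IFN-γ library, replicate 1, was still well above every 4-OI library. The gene was 2.45-fold lower, with means of 51.1 ± 5.26 CPM with 4-OI and 125 ± 23.9 CPM with IFN-γ alone (SD, n = 3 each; log2 fold change -1.29 ± 0.15, SE; edgeR adjusted p = 2.92e-04). Its estimate was the lowest of the 10 genes, but within the error of that of Nlrp1b, and it ran from -1.55 to -1.17 over the 15 alternatives. Without IFN-γ replicate 2, Nlrp1b had the lower estimate. Pycard has 3 exon intervals in the deposited tables and lies on chromosome 7, minus strand, at 127590545 to 127593039.

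The caspases went 3 ways, with 1 higher, 1 lower and 1 not called. Casp1 encodes the protease that inflammasomes activate. It had 105, 106 and 118 CPM in the 4-OI libraries, against 53.9, 70.1 and 66.4 CPM in the IFN-γ libraries. All 4-OI libraries stood above all IFN-γ libraries, and the gene was 1.73-fold higher (log2 fold change 0.79 ± 0.12, SE; edgeR adjusted p = 8.52e-04). Casp4 is its neighbour on the plus strand of chromosome 9: Casp1 spans 5298517 to 5307281 and Casp4 5308816 to 5336791.

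Casp4 is the mouse gene of caspase-11, which binds bacterial lipopolysaccharide in the cytosol and cuts gasdermin D without a sensor of the NLR family. It had 35.1, 34.2 and 39.2 CPM in the 4-OI libraries, against 40.4, 46.0 and 46.9 CPM in the IFN-γ libraries. The groups came close, with 39.2 CPM in the highest 4-OI library and 40.4 CPM in the lowest IFN-γ library. The gene was 1.23-fold lower (log2 fold change -0.30 ± 0.10, SE; edgeR adjusted p = 0.0350). That call was lost without 4-OI replicate 1, 4-OI replicate 2, IFN-γ replicate 2 or IFN-γ replicate 3 (log2 fold changes -0.27 to -0.25, edgeR adjusted p = 0.114 to 0.148) and with no filter on low counts, and the adjusted p ran from 1.04e-07 to 0.148 over the 15 alternatives.

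Casp8 encodes the protease of death receptors, which can also cut gasdermin D and which holds necroptosis in check. It had 155, 154 and 141 CPM in the 4-OI libraries, against 132, 134 and 136 CPM in the IFN-γ libraries. The groups did not overlap, but the difference did not pass the test (log2 fold change 0.16 ± 0.08, SE; edgeR adjusted p = 0.122). The call was gained with IFN-γ replicate 1 and 4-OI replicate 3 left out (log2 fold change 0.19, edgeR adjusted p = 2.72e-04), and its sign turned with total-count scaling (-0.10, adjusted p = 0.426, the highest of the 15 alternatives). The gene lies on chromosome 1, plus strand, at 58834398 to 58886662, and 4.37% of its 50-base words also occurred in the predicted gene Gm20257.

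The membrane effectors went opposite ways. Gsdmd encodes the pore-forming protein that caspase-1 and caspase-11 cut. It had 59.8, 61.2 and 53.9 CPM in the 4-OI libraries, against 87.8, 109 and 108 CPM in the IFN-γ libraries. No 4-OI library reached the lowest IFN-γ library, and the gene was 1.74-fold lower (log2 fold change -0.80 ± 0.11, SE; edgeR adjusted p = 5.98e-04). Its place is on chromosome 15, plus strand, at 75733990 to 75739257.

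Ninj1 encodes the protein that clusters in the membrane of dying cells and tears it open. It had 234, 236 and 243 CPM in the 4-OI libraries, against 86.5, 117 and 121 CPM in the IFN-γ libraries. The 4-OI libraries agreed within an SD of 4.89 CPM and all lay far above the IFN-γ libraries. The gene was 2.19-fold higher, the largest rise among the 10 (log2 fold change 1.13 ± 0.13, SE; edgeR adjusted p = 2.43e-04). The gene has 4 exon intervals and lies on chromosome 13, plus strand, at 49341005 to 49349727.

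**Figure D2:**
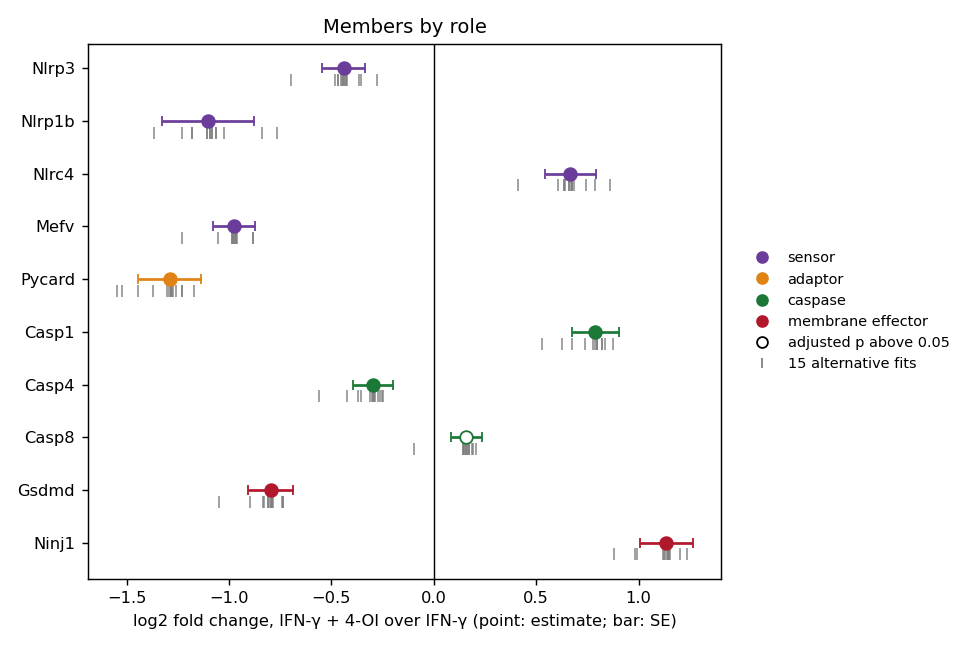
Log2 fold change of each gene, 4-OI over IFN-γ alone, coloured by role (large point: estimate; bar: SE; open point: adjusted p above 0.05; grey ticks: 15 alternative fits). Ninj1 at 1.13, Casp1 at 0.79 and Nlrc4 at 0.67 lie right of 0, Pycard at -1.29 lies furthest left, and Casp8 has its alternatives on both sides of 0.

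No exon base of the 10 genes was shared with another gene on either strand in the deposited tables. Of the 50-base words of their GENCODE transcripts, 1.09% of those of Nlrc4 occurred in other genes, beside the shares of Nlrp1b and Casp8 above, and none of those of the other 7 genes did.

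Levels of different genes can be compared only per length, as the deposited TPM give them. TPM were not scaled by TMM factors, so they serve for the order within a group and not for the change between groups. In the 4-OI libraries Ninj1 stood first with 365 ± 25.9 TPM (SD, n = 3), ahead of Casp1 with 128 ± 3.49 TPM and Casp8 with 87.9 ± 12.2 TPM. Gsdmd (51.5 ± 7.80 TPM), Nlrp3 (50.1 ± 8.43 TPM), Casp4 (42.8 ± 1.01 TPM) and Pycard (42.1 ± 1.11 TPM) followed. The libraries of each of these neighbours overlapped, so their order is not resolved. Mefv with 14.7 ± 2.91 TPM and Nlrc4 with 13.2 ± 2.25 TPM overlapped too, and Nlrp1b was last with 0.473 ± 0.0899 TPM.

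In the IFN-γ libraries Ninj1 was again first, with 215 ± 17.5 TPM, but Pycard came next with 133 ± 11.7 TPM and then Gsdmd with 115 ± 1.79 TPM. Casp8 (102 ± 10.4 TPM), Casp1 (96.0 ± 2.56 TPM) and Nlrp3 (89.1 ± 20.3 TPM) overlapped with their neighbours. Casp4 had 68.7 ± 2.82 TPM, Mefv 37.5 ± 4.87 TPM, Nlrc4 10.96 ± 2.93 TPM and Nlrp1b 1.35 ± 0.573 TPM. Pycard thus stood in the unresolved group of Gsdmd, Nlrp3 and Casp4 with 4-OI and right behind Ninj1 with IFN-γ alone. Casp1 stood right behind Ninj1 with 4-OI and in the unresolved group of Casp8 and Nlrp3 with IFN-γ alone.

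**Figure D3:**
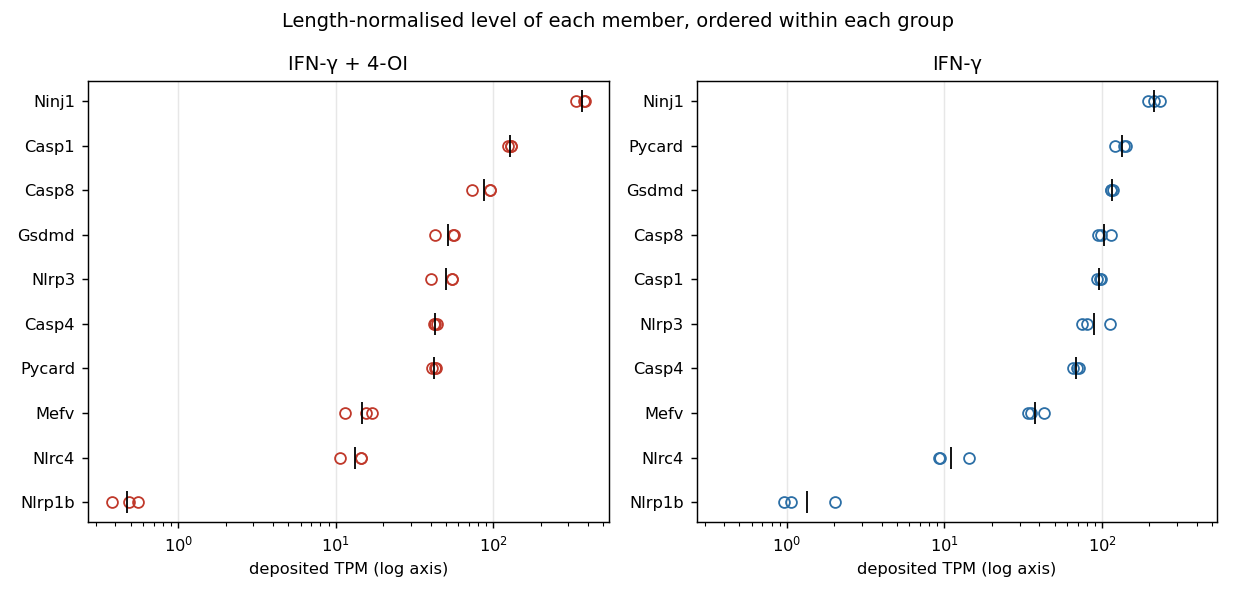
Deposited TPM of each gene on a log axis, ordered within the 4-OI libraries (left) and within the IFN-γ libraries (right); circles are libraries and the vertical line is the mean of 3. Ninj1 leads both orders, and Pycard stands at 42.1 TPM in the left panel and 133 TPM in the right.

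Because proteins of the pathway act on each other, 9 pairs of genes were compared as the log2 ratio of their CPM within a library, in which gene length and library scaling cancel when groups are set against each other. The ratio of Casp1 to Pycard, the protease to its adaptor, was 1.16, 1.10 and 1.05 on the log2 scale in the 4-OI libraries, against -0.86, -1.03 and -1.01 in the IFN-γ libraries. Caspase reads thus outnumbered adaptor reads in every 4-OI library and were outnumbered in every IFN-γ library. The means differed by 2.07, or 4.20-fold (exact permutation test, two-sided p = 0.1). With 3 libraries against 3, that is the smallest p this test can give, and it becomes 0.112 when adjusted over the 9 pairs, so no pair can pass 0.05.

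The ratio of Ninj1 to Gsdmd, the rupture protein to the pore, averaged 2.03 ± 0.13 in the 4-OI libraries and 0.09 ± 0.10 in the IFN-γ libraries (log2 scale, SD, n = 3 each), a difference of 1.94 or 3.84-fold. The ratio of Gsdmd to Casp1, the substrate to its protease, averaged -0.91 ± 0.19 in the 4-OI libraries and 0.68 ± 0.04 in the IFN-γ libraries, 3.00-fold lower with 4-OI. Neither pair overlapped between groups, and each gave the smallest p of 0.1. Casp4 to Casp1 differed by -1.09 (-1.60 ± 0.02 with 4-OI and -0.51 ± 0.10 with IFN-γ alone), and Casp8 to Casp1 by -0.64 (0.45 ± 0.17 with 4-OI and 1.09 ± 0.18 with IFN-γ alone).

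The adaptor was also set against Casp8 and 2 sensors. Casp8 to Pycard differed by 1.43 (1.55 ± 0.22 with 4-OI and 0.12 ± 0.27 with IFN-γ alone) and Nlrp3 to Pycard by 0.84 (1.19 ± 0.27 with 4-OI and 0.36 ± 0.44 with IFN-γ alone), both without overlap. Mefv to Pycard differed by 0.30 (-0.78 ± 0.32 with 4-OI and -1.08 ± 0.31 with IFN-γ alone), and its libraries overlapped (exact permutation test, two-sided p = 0.2). Between sensors, Nlrp3 to Nlrp1b differed by 0.61 (5.23 ± 0.10 with 4-OI and 4.62 ± 0.25 with IFN-γ alone), without overlap.

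**Figure D4:**
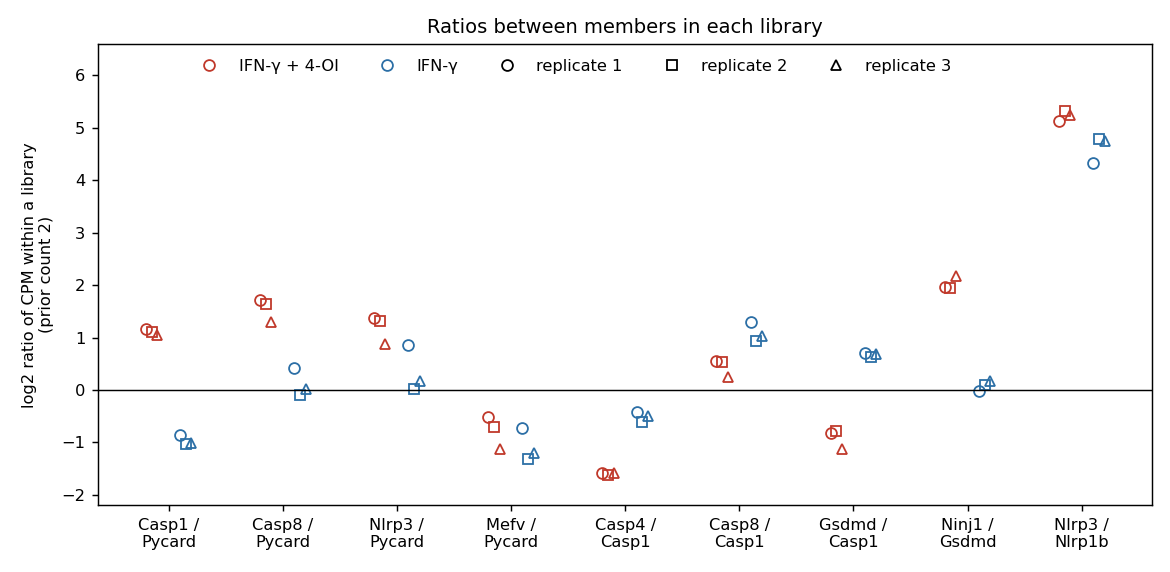
Log2 ratio of CPM of 9 gene pairs within each library (prior count 2), with 4-OI libraries in red left of IFN-γ libraries in blue and marker shape for the replicate. Casp1/Pycard lies above 0 in all 4-OI libraries and below 0 in all IFN-γ libraries, Gsdmd/Casp1 the other way round, and Mefv/Pycard is the 1 pair whose groups overlap.

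The wider pathway was followed through 12 lists of 85 genes, of which 83 were in the tables and 71 were tested. Of these, 16 were higher with 4-OI, against 22.7% of all tested genes, and 23 were lower, against 25.4%. Their median log2 fold change was -0.04, against -0.01 over all tested genes. The shares of 22.7% higher and 25.4% lower also stand beside the counts of every list below. No list was tested as a set, and a count near these shares says nothing particular about its list.

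Around the sensors, 1 of the 8 tested genes of other sensors and NAIP receptors was higher and 3 were lower. The NAIP receptors, which bind the bacterial ligand and hand it to NLRC4, did not follow Nlrc4 as a group. Naip2 averaged 211 ± 18.0 CPM with 4-OI and 156 ± 24.6 CPM with IFN-γ alone (1.35-fold higher; edgeR adjusted p = 0.0219, and 5.36e-15 to 0.354 over the alternatives). That call was lost without 4-OI replicate 1 or 2 or IFN-γ replicate 2 or 3 (adjusted p = 0.0526 to 0.0763) and with total counts. Naip6 was 2.57-fold lower (19.0 ± 2.21 CPM with 4-OI and 48.6 ± 13.4 CPM with IFN-γ alone; edgeR adjusted p = 7.30e-04) and Naip5 1.55-fold lower (edgeR adjusted p = 0.00366). Naip genes are close copies of each other, and how the authors' counting split their shared reads is not given in the sources used here. Aim2, the sensor of cytosolic DNA, had 105 ± 8.31 CPM with 4-OI and 97.7 ± 8.82 CPM with IFN-γ alone and was not called (log2 fold change 0.10; edgeR adjusted p = 0.433). It was called higher with IFN-γ replicate 1 and 4-OI replicate 3 left out (log2 fold change 0.24, adjusted p = 1.22e-05; up to 0.702 over the alternatives). Nlrp12, a gene at 0.794 ± 0.230 CPM with 4-OI and 1.51 ± 0.201 CPM with IFN-γ alone, was the other one called lower (edgeR adjusted p = 0.0209, and 0.0536 to 0.0583 without 4-OI replicate 2 or 3). The call was also lost with IFN-γ replicate 1 and 4-OI replicate 3 both left out (0.0621), the gene had few reads, and 14.3% of its exon bases overlap a gene on the opposite strand.

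Of the 7 tested partners and triggers of NLRP3, 2 were higher and 1 was lower. Panx1, a membrane channel that releases ATP, had 61.9, 58.3 and 72.4 CPM in the 4-OI libraries, against 17.3, 20.8 and 21.0 CPM in the IFN-γ libraries. It was 3.26-fold higher, without overlap between groups (edgeR adjusted p = 2.13e-05). P2rx4, an ATP-gated channel, was 1.28-fold higher (edgeR adjusted p = 0.00843) and Ikbkb, a kinase of the NF-κB pathway, 1.26-fold lower (edgeR adjusted p = 0.00988). Nek7, the kinase that NLRP3 needs for assembly, was at -0.21 on the log2 scale and not called (edgeR adjusted p = 0.0659), but passed without IFN-γ replicate 1 (0.0489), with IFN-γ replicate 1 and 4-OI replicate 3 both left out (0.00416), with upper quartile factors and with total counts (up to 0.207 over the alternatives). Neither Txnip, a thioredoxin-binding protein (-0.19; edgeR adjusted p = 0.0978, but 0.0117 with IFN-γ replicate 1 left out and 1.37e-05 with 4-OI replicate 3 left out too), nor P2rx7, the main ATP receptor upstream of NLRP3 (0.06; edgeR adjusted p = 0.684), was called with all libraries.

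Pyrin is held inactive by kinases downstream of RHOA and by 14-3-3 proteins. Of 7 tested genes of these partners, 2 were higher and 2 lower. Ywhaz, a 14-3-3 gene, was 1.51-fold higher (485 ± 50.1 CPM with 4-OI and 321 ± 24.5 CPM with IFN-γ alone; edgeR adjusted p = 0.00232). Rhoa was 1.24-fold higher (edgeR adjusted p = 0.0358, and 8.82e-04 to 0.630 over the alternatives), a call lost without any 1 of the 4-OI libraries or IFN-γ replicate 3 (0.0695 to 0.103). Pstpip1, which binds pyrin, was 1.58-fold lower (63.1 ± 4.13 CPM with 4-OI and 99.4 ± 12.2 CPM with IFN-γ alone; edgeR adjusted p = 0.00182) and its relative Pstpip2 1.25-fold lower (edgeR adjusted p = 0.00998, and 0.0572 to 0.0599 without 4-OI replicate 1 or 2 or IFN-γ replicate 3). Mefv and Pstpip1 were both lower, as were 25.4% of all tested genes, and a link between them was not tested.

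None of the 3 genes that restrain NLRP1B or degrade its cut fragment was called. Dpp9, whose protein binds NLRP1B and keeps it silent, had 33.0 ± 2.03 CPM with 4-OI and 33.8 ± 3.54 CPM with IFN-γ alone (edgeR adjusted p = 0.784). Ubr2, a ubiquitin ligase of the degradation route, had 114 ± 20.9 CPM with 4-OI and 122 ± 28.8 CPM with IFN-γ alone (edgeR adjusted p = 0.708). With both IFN-γ replicate 1 and 4-OI replicate 3 left out, its log2 fold change was 0.26, against -0.10 with them (edgeR adjusted p = 1.39e-05, and up to 0.852 over the alternatives). Of the inhibitor list 1 gene was tested: Serpinb1a, an inhibitor of neutrophil proteases and of inflammatory caspases, was 1.69-fold lower (edgeR adjusted p = 7.34e-04).

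Guanylate-binding proteins coat bacteria and expose lipopolysaccharide to caspase-11, and they are induced by IFN-γ. All 4 of the listed genes were lower with 4-OI. Gbp5 had 19.6, 19.9 and 18.6 CPM in the 4-OI libraries, against 86.2, 78.8 and 86.4 CPM in the IFN-γ libraries, 4.32-fold lower (edgeR adjusted p = 2.31e-06). Gbp7 was 4.01-fold lower, Gbp3 3.05-fold and Gbp2 2.82-fold. Each of them had 4-OI libraries below all IFN-γ libraries. The Gbp genes resemble each other in sequence, and 16.9% of the exon bases of Gbp3 overlap a gene on the opposite strand.

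Caspase-8 sits with FADD, RIPK1 and cFLIP, and its loss frees RIPK3 and MLKL to drive necroptosis. Of 10 tested genes of this platform, 3 were higher and 3 lower. Mlkl, the pore former of necroptosis, was 1.93-fold higher (35.7 ± 0.675 CPM with 4-OI and 18.5 ± 1.28 CPM with IFN-γ alone; edgeR adjusted p = 7.03e-05). Ripk1 was 1.57-fold and Birc3, a ubiquitin ligase of the complex, 1.59-fold higher. Zbp1, a sensor of Z-form nucleic acids that engages RIPK3, had 4.88, 6.19 and 5.97 CPM in the 4-OI libraries, against 28.7, 32.2 and 30.4 CPM in the IFN-γ libraries. It was 5.32-fold lower (edgeR adjusted p = 3.59e-06), Birc2 1.51-fold lower and Cflar, the gene of cFLIP, 1.45-fold lower (edgeR adjusted p = 0.0247, and 0.0620 to 0.0922 without 4-OI replicate 2 or 3). Neither Fadd (log2 fold change 0.27; edgeR adjusted p = 0.0892) nor Ripk3 (0.07; edgeR adjusted p = 0.594) was called.

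Of the 9 other gasdermins and NINJ2, 1 was tested. Gsdme, another gasdermin, had 61.9 ± 4.26 CPM with 4-OI and 46.0 ± 0.523 CPM with IFN-γ alone and was 1.35-fold higher (edgeR adjusted p = 0.00364). Gsdmd and Gsdme thus moved in opposite directions. Gsdma had 41 counts summed over the 4-OI libraries and 3 over the IFN-γ libraries, and Ninj2, the relative of Ninj1, had 2 over the 4-OI libraries and 1 over the IFN-γ libraries. Gsdma2, Gsdma3, Gsdmc, Gsdmc2 and Gsdmc3 had 0 counts in every library. By total counts, without TMM factors, that allows a level of up to 0.153 CPM in the shallowest library (counting error only).

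Gasdermin D pores are helped by palmitoylation and the Ragulator-Rag complex and are removed by ESCRT proteins. Of 10 tested genes of these steps, 3 were higher and none was lower, against 22.7% and 25.4% of all tested genes. Rraga was 1.67-fold higher (60.0 ± 5.20 CPM with 4-OI and 35.9 ± 6.02 CPM with IFN-γ alone; edgeR adjusted p = 0.00272), and Rragc 1.31-fold (edgeR adjusted p = 0.00407). Both encode GTPases of the Rag complex. Chmp3, an ESCRT subunit, was 1.34-fold higher (edgeR adjusted p = 0.0106).

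Among 7 tested cytokine substrates and antagonists, 3 were higher and 2 lower. Il1a had 555, 546 and 591 CPM in the 4-OI libraries, against 268, 291 and 297 CPM in the IFN-γ libraries, 1.98-fold higher (edgeR adjusted p = 5.46e-05). Il1b, the main substrate of caspase-1, was 1.36-fold higher (1448 ± 141 CPM with 4-OI and 1065 ± 165 CPM with IFN-γ alone; edgeR adjusted p = 0.0307, and 0.05004 to 0.103 without any 1 of the 4-OI libraries). Il18, another substrate, was 1.47-fold higher at 7.39 ± 1.31 CPM with 4-OI and 5.04 ± 0.573 CPM with IFN-γ alone (edgeR adjusted p = 0.0200, and 0.0529 to 0.0626 without 4-OI replicate 3 or IFN-γ replicate 2). The decoy receptor gene Il1r2 was 2.39-fold lower (229 ± 7.30 CPM with 4-OI and 548 ± 64.2 CPM with IFN-γ alone; edgeR adjusted p = 4.84e-05). Il1rn, the gene of the receptor antagonist, was 1.21-fold lower (edgeR adjusted p = 0.0283, and 0.104 to 0.127 without 4-OI replicate 1 or 2 or IFN-γ replicate 2 or 3). Casp1 and these agonist genes were higher in the libraries where Pycard and Gsdmd were lower. Any called genes share their libraries in this way when 2 groups are compared, and a link between these genes was not tested.

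Of 8 tested transcription factors that act on genes of this pathway, 6 were lower and none was higher. Irf4 had 69.0, 64.3 and 65.0 CPM in the 4-OI libraries, against 192, 162 and 167 CPM in the IFN-γ libraries, 2.63-fold lower (edgeR adjusted p = 1.52e-05). Irf9 was 2.03-fold lower, Irf1 1.89-fold and Nfkb1, an NF-κB subunit, 1.68-fold. Irf8, which drives Naip genes in mouse, was 1.18-fold lower (edgeR adjusted p = 0.0395, and 0.0927 to 0.164 without any 1 library but IFN-γ replicate 1), a call also lost with RLE factors and with no filter. Irf2, which drives Gsdmd, had 45.6 ± 0.717 CPM with 4-OI and 51.8 ± 5.70 CPM with IFN-γ alone. It was not called (log2 fold change -0.18; edgeR adjusted p = 0.159), but was called lower with total-count scaling (-0.44; edgeR adjusted p = 0.0145).

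Over the 6 libraries, 8670 genes at a mean of at least 10 CPM were ranked by how closely their centred log2 CPM profile followed that of Pycard or Ninj1 (root mean square distance). The closest to Pycard were S100a4 (0.054), Clec4a2 (0.054) and Adora2b (0.056). S100a4 averaged 49.2 ± 7.83 CPM with 4-OI and 121 ± 22.9 CPM with IFN-γ alone. The closest to Ninj1 were Psmd4 (0.025), Clec4n (0.035) and H2-D1 (0.055). Psmd4 averaged 294 ± 12.2 CPM with 4-OI and 133 ± 24.6 CPM with IFN-γ alone. This likeness is a description of 6 profiles in 2 groups.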

How the data were processed

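Each sample has a table deposited by the authors, with the counts and TPM of every gene. The counts, named so per the file headers, are whole numbers and entered all tests; the deposited TPM only ordered genes within a group. HISAT2 and mm10 appear in the submitters' processing notes, while the program that counted reads, its handling of strand and its annotation were not given in the sources used here. Gene positions are printed as the deposited tables give them, and they do not follow mm10 for all genes. Pycard, for example, ends at 127593039, while its RefSeq window (GRCm38.p6, the assembly also named mm10) begins at 127993818. Promoters come from RefSeq (GRCm38.p6) and 50-base words from GENCODE M21 transcripts.

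Groups were taken from the titles. Genes were kept by filterByExpr (minimum count 10), libraries scaled by TMM, and all 14011 genes fitted with edgeR 4.0.16 (robust quasi-likelihood test, R 4.3.3), at a Benjamini-Hochberg adjusted p of 0.05. CPM carry the TMM factors. Replicates differed by a chi-square per gene of at least 4.29, so none agreed within sampling noise. On simulated data of 14011 genes the fit recovered 34.3% of 67 genes changed 1.5-fold, 82.1% of 67 changed 2-fold and 93.9% of 66 changed 4-fold, and 8.50% of what it called had not been changed. Far fewer genes were changed there than the 6736 called in the data. Both kinds of share depend on how many genes change, so they do not carry over to the data. Ratios used log2 CPM with a prior count of 2.

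The genes, lists and tests were chosen with earlier results of these data known, and no p was adjusted over a list. Named genes are the 10 genes, the 2 with the smallest adjusted p of each list and a set of genes central to each step; other list genes and markers were named after their values were seen, to complete small counts. Alternatives were RLE, upper quartile and total-count scaling, no filter, at least 1 CPM in 3 libraries, limma-voom 3.58.1, DESeq2 1.42.0, a replicate block, leaving out each library, and leaving out IFN-γ replicate 1 and 4-OI replicate 3 together; for ratios, also a prior count of 0.5. Pydc3, Pydc4 and Trac, and a comparison of protein sequences, are not analysed here, and results of some list genes are not reported here.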

Additional observations from a re-analysis of the deposited data

How the results depend on the processing

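Of 150 values of the 10 genes under 15 alternatives, 142 kept their direction and side of the threshold; 7 of the 10 genes did so in every alternative, and Nlrc4, Casp4 and Casp8 did not. Leaving out each library in turn gave 3 higher and 5 to 6 lower among the 10 genes, and 13 to 20 higher and 18 to 27 lower among the pathway lists. With total-count scaling the pathway lists had 8 higher and 35 lower, and the median over all genes was -0.27; of all 14011 tested genes, 1719 were then higher and 5452 lower. Under it the signs of Casp8 (-0.10), Aim2 (-0.16), P2rx7 (-0.20) and Ripk3 (-0.18) turned, and none of these genes was called there or in the reported fit. P2rx4, Gsdme, Rragc, Chmp3, Rhoa, Naip2, Il1b and Il18 were no longer called under it. Nek7, Txnip and Irf2 were called lower under it, though not in the reported fit. Casp4, Rhoa, Il1rn and Irf8 lost their call with no filter, Irf8 with RLE and Rhoa with upper quartile factors. Dpp9 turned to 0.02 without 4-OI replicate 3, 0.045 without IFN-γ replicate 1 and 0.10 without both (-0.077 to 0.045 over single libraries left out), Ubr2 to 0.05, 0.11 and 0.26, and Ripk3 to -0.024 without IFN-γ replicate 1 (-0.024 to 0.14). Of the 39 called pathway genes, 13 lost their call somewhere and none turned. Leaving out each library, the ratio differences ran from 2.04 to 2.12 for Casp1/Pycard, 1.87 to 1.99 for Ninj1/Gsdmd, -1.65 to -1.48 for Gsdmd/Casp1 and 0.16 to 0.47 for Mefv/Pycard, and none turned. Deviations of same-numbered libraries correlated at 0.265, -0.100 and 0.193, and not every library correlated best with its own number. With 3 libraries per group, such correlations cannot tell whether the numbers pair samples. With the replicate block, 3 of the 10 genes were higher and 6 lower, and 18 and 23 of the pathway genes. Over all 14011 tested genes, 3588 were higher and 3925 lower with the block, against 3181 and 3555 without it. Nlrp1b had 63 to 221 counts per library, the fewest of the 10 genes. The causes of these shifts were not tested.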
